A study of Mus musculus with 8 samples.

Results

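Transcripts of the colony-stimulating factor (CSF) family were examined in brown adipose tissue (BAT) of WT and Ucp1Δ/Δ mice. The 7 genes were chosen by name, as the CSF ligands Csf1 and Il34 and the receptors Csf1r, Csf2ra, Csf2rb, Csf2rb2 and Csf3r, and all 7 were found among the 31053 genes of the deposited count table. Bulk RNA-seq was performed on 4 WT mice and 4 Ucp1Δ/Δ mice of the C57BL6/J strain, given as 10 weeks old by the labels, while the study's text gives a younger age. Ucp1Δ/Δ mice, labelled ATGLKO, carry floxed Pnpla2 alleles and a Cre transgene driven by the Ucp1 promoter, so that adipose triglyceride lipase (ATGL) is deleted in thermogenic adipocytes. The WT mice are labelled by genotype alone, and whether they carried the floxed alleles or Cre was not given in the sources used here. A further label reads stromal vascular fraction, whereas the study's text names BAT, and transcripts of mature brown adipocytes were abundant in every library, with Ucp1 at a mean of 2719 CPM, a count scaled to the size of its library, in WT mice.

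CSF1 and interleukin 34 are secreted ligands of a shared receptor tyrosine kinase, CSF1R, on which most tissue macrophages depend for survival and proliferation. GM-CSF signals through its own alpha chain, encoded by Csf2ra, together with the common beta chain, encoded by Csf2rb. The mouse has a further beta chain gene, Csf2rb2, whose product serves interleukin 3 alone, and Csf3r encodes the G-CSF receptor of neutrophils. In adipose tissue, CSF1 is made by stromal cells among others, and its receptor marks monocytes and macrophages.

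Csf2rb and Csf2rb2 are neighbours on chromosome 15 and close copies of each other, so it was examined how far reads could tell them apart. Over the aligned coding bases of their longest protein-coding GENCODE transcripts, 95.2% were identical. Of all windows of 75 bases, the read length of the libraries, 10.7% of those in the Csf2rb transcript and 11.1% of those in the Csf2rb2 transcript also occurred letter for letter in the other gene. In the last 500 bases of either transcript 0 of 426 windows did. A coding stretch of 75 bases without a difference, printed because a read of that length matches both genes, was (mm10, spliced across an intron, so that its coordinates span 153 bases):
Csf2rb, chr15:78340528-78340680, plus strand: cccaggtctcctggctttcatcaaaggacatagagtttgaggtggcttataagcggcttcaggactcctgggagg
The same letters were found for Csf2rb2 at chr15:78292629-78292781 on the minus strand. A stretch with the median number of differences, 2 in 75 bases, is shown with the differing bases in capitals:
Csf2rb, chr15:78335207-78335281, plus strand: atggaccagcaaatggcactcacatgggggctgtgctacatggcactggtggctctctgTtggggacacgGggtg
Csf2rb2, chr15:78298155-78298229, minus strand: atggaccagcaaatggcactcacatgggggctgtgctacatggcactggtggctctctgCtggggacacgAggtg
Where a read covers such a base it can be assigned, and where it covers none it cannot, so the counts of this pair are uncertain to that extent.

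RefSeq promoter sequences (GRCm38.p6) were found for 4 of the 7 genes, Csf1, Csf2ra, Csf2rb2 and Csf3r. The 250 bases before the RefSeq start were searched on both strands for the core motif of PU.1, the myeloid factor encoded by Spi1 (GAGGAA), for an AP-1 motif (TGANTCA) and for a C/EBP motif (TTGCNNAA). The first stood in 23.3% of the 32851 mouse promoters searched, the AP-1 motif in 6.75% and the C/EBP motif in 9.56%. Csf2ra held 2 adjoining PU.1 core motifs within 14 bases of the RefSeq start, Csf2rb2 and Csf3r held 1 each, and Csf1 held 0. The RefSeq start lies inside the GENCODE gene for Csf2ra, whose window runs 11 bases into it, and for Csf3r, whose window runs 109 bases into it, so that the match of Csf3r and part of those of Csf2ra are inside the gene by GENCODE. Neither of the other motifs was found in these 4 windows. The sequences of Csf2ra and Csf1, a receptor and a ligand that were both higher in Ucp1Δ/Δ mice, are printed from the far end to the base before the RefSeq start, with motif matches in capitals:
Csf2ra, chr19:61228419-61228668, minus strand: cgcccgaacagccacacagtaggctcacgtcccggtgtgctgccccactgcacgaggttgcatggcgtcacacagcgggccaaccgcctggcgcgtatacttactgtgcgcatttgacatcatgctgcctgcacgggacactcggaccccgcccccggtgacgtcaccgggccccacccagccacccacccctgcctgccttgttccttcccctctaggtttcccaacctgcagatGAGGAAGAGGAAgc
Csf1, chr3:107760470-107760719, minus strand: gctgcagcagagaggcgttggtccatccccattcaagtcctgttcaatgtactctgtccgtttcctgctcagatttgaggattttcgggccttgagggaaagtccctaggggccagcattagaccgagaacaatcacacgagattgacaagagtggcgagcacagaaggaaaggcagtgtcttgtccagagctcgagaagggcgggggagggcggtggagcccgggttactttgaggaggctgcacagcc
These matches are letters in a window and show no binding.

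The libraries held 2017697 to 3115956 counts for WT and 2240612 to 2941799 for Ucp1Δ/Δ mice. At these depths 3 counts, taken as the floor for counting error, correspond to between 0.933 and 1.53 CPM. Pnpla2, the gene of ATGL and the check of the labels, was lower in each Ucp1Δ/Δ mouse than in each WT mouse, with 402.8 to 530.5 against 2701 to 3152 CPM. Levels of different genes were not compared with each other, since counts were not set per transcript length. Skeletal muscle markers, summed over 6 genes, varied strongly between mice of one genotype, from 15.0 to 1177 CPM in WT and from 46.8 to 1552 CPM in Ucp1Δ/Δ mice, with the highest values in WT replicate 1 and Ucp1Δ/Δ replicate 2. Values without both of these mice are therefore given beside the main result or with the other alternatives below.

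The 5 family members with enough counts for the test, Csf1, Il34, Csf1r, Csf2ra and Csf2rb, were each higher in BAT of Ucp1Δ/Δ mice. Their log2 fold changes (log2FC, Ucp1Δ/Δ over WT) were between 1.18 for Csf2rb and 2.83 for Csf1r. Csf2rb2 had too few counts for the test and was counted mainly in Ucp1Δ/Δ mice, and Csf3r was at or near the floor in each mouse. Across the 8930 genes tested by the quasi-likelihood test of edgeR, 21.0% passed a Benjamini-Hochberg adjusted p of 0.05, 13.3% as higher and 7.63% as lower in Ucp1Δ/Δ mice. Of all tested genes, 14.4% were higher and 9.37% lower without any overlap between the genotypes, and the median log2FC over all tested genes was -0.0087. The filter on low counts kept Csf1 through its Ucp1Δ/Δ libraries alone, since 0 of 4 WT libraries and 4 of 4 Ucp1Δ/Δ libraries were over the filter's level of 4.22 CPM, so its inclusion and its difference are not independent. Without WT replicate 1 and Ucp1Δ/Δ replicate 2, the count of members called was also 5. The CSF genes were chosen with earlier results of these data known, so the choice and these calls are not independent. In bulk tissue, more cells of a type and more RNA per cell cannot be told apart.

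**Figure D1:**
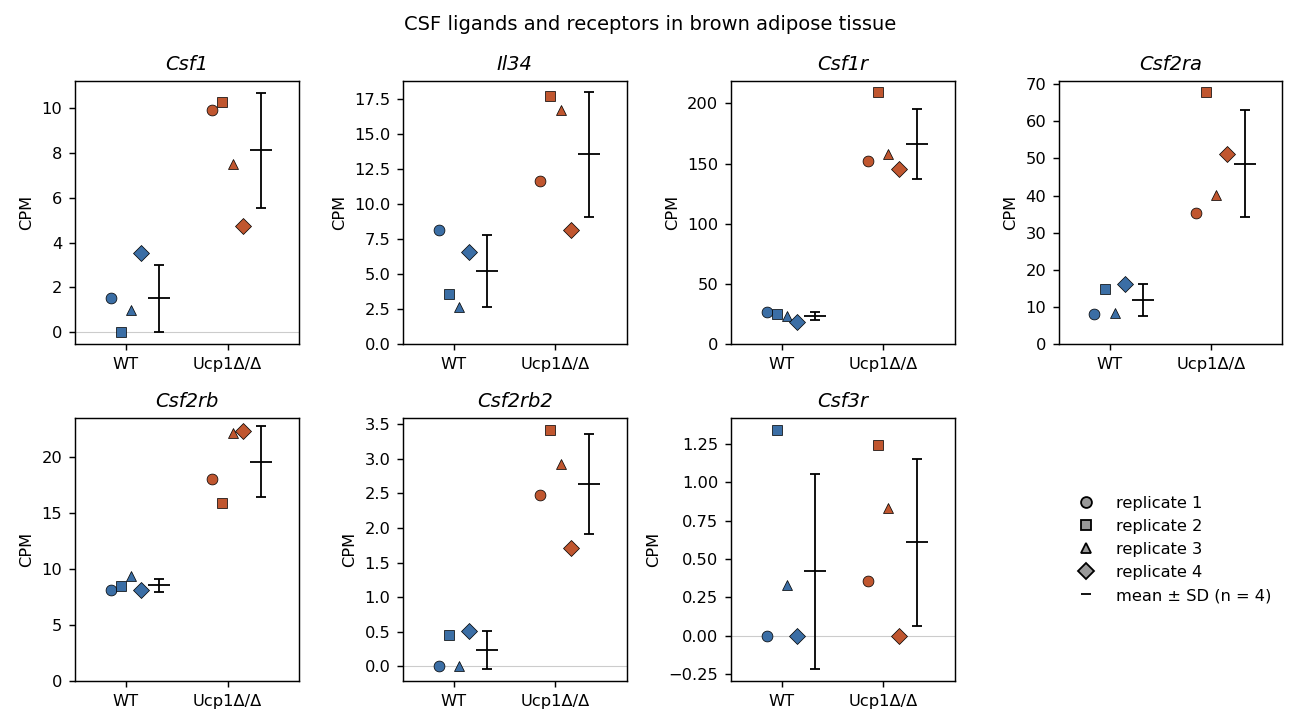
Levels of the 7 CSF genes in CPM (linear axes, a scale for each gene) by genotype, with 1 point for each mouse, the shape giving the replicate number, and the mean ± SD of 4 mice as a bar. Csf1, Csf1r, Csf2ra, Csf2rb and Csf2rb2 showed no overlap between genotypes, Il34 overlapped at 8.16 CPM, and Csf3r stayed at or below 1.34 CPM in each mouse.

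Among the ligands, Csf1 (ENSMUSG00000014599, minus strand of chromosome 3, from 107741048 to 107760469 in mm10) was counted 3, 0, 3 and 7 times in WT replicates 1 to 4 and 28, 33, 18 and 11 times in Ucp1Δ/Δ replicates 1 to 4. Scaled to library size, this corresponds to 1.52 ± 1.49 CPM (SD, n = 4) in WT and 8.10 ± 2.56 CPM (SD, n = 4) in Ucp1Δ/Δ mice. The highest WT mouse, at 3.55 CPM, lay below the lowest Ucp1Δ/Δ mouse, at 4.72 CPM. The log2FC with its standard error (SE) was 2.47 ± 0.53 (SE, adjusted p = 0.00319), the least precise among the 5 tested members. It rested in part on single mice: without WT replicate 2, which had 0 counts, it was 2.07, and without WT replicate 4, which had the most, 3.21. The mean log2 CPM differed by 2.13, with a 95% interval from 0.35 to 3.78 (two-sided exact permutation test, p = 0.0286, which is the lower limit for groups of 4, and 0.040 adjusted over the 7 genes). With any 1 of the 4 Ucp1Δ/Δ mice left out, the p of this exact permutation test was 0.0571.

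Il34 (ENSMUSG00000031750, minus strand of chromosome 8, from 110741829 to 110805924), the other ligand of CSF1R, was counted 16, 8, 8 and 13 times in WT and 33, 57, 40 and 19 times in Ucp1Δ/Δ replicates. Its level was 5.25 ± 2.56 CPM (SD, n = 4) in WT and 13.6 ± 4.48 CPM (SD, n = 4) in Ucp1Δ/Δ mice. The groups touched, because WT replicate 1 and Ucp1Δ/Δ replicate 4 both stood at 8.16 CPM. The log2FC was 1.43 ± 0.36 (SE, adjusted p = 0.0101), with adjusted p from 0.000335 to 0.0435 over the alternatives tried. The exact permutation test of the mean log2 CPM gave a difference of 1.29 and p = 0.0571, which missed 0.05 (two-sided, n = 4 mice for each genotype, adjusted p = 0.0667 over the 7 genes), and without WT replicate 1 it was 0.0286. The exons of Il34 share 3.83% and 1.12% of their bases with the antisense genes Gm15895 and Gm15894.

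Set against each other within a library, the ligands gave ratios that overlapped between the genotypes. There were 346.2 Il34 counts for each 100 Csf1 counts in the summed WT libraries and 165.6 in the summed Ucp1Δ/Δ libraries, but the ratio in single WT mice rested on as few as 0 Csf1 counts. The mean log2 ratio of Il34 to Csf1 was 2.11 ± 1.44 (SD, n = 4) in WT and 0.73 ± 0.37 (SD, n = 4) in Ucp1Δ/Δ mice (two-sided exact permutation test, p = 0.0571, or 0.114 adjusted over the 8 ratios examined). The 95% interval of the difference, from -3.85 to 0.28, holds both 0 and a large shift. Single WT mice moved the difference of -1.39, to -0.73 without replicate 2 (exact permutation p = 0.143) and to -1.81 without replicate 4 (exact permutation p = 0.0286).

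Csf1r (ENSMUSG00000024621, plus strand of chromosome 18, from 61100598 to 61132149) was the member with the smallest p-value. It was counted 52, 56, 69 and 37 times in WT replicates 1 to 4 and 429, 672, 379 and 340 times in Ucp1Δ/Δ replicates 1 to 4. In CPM the WT mice lay between 18.7 and 26.5 and the Ucp1Δ/Δ mice between 145.9 and 209.1, so that the lowest Ucp1Δ/Δ mouse was far above the highest WT mouse. The log2FC was 2.83 ± 0.19 (SE, adjusted p = 2.53e-07), or 7.11-fold, and by its p-value the gene ranked 7 of the 8930 tested. Over the 8 fits that lacked a single mouse it lay between 2.71 and 2.89, and without WT replicate 1 and Ucp1Δ/Δ replicate 2 it was 2.78. The exons of Csf1r share 873 bases, or 15.1% of their length, with Hmgxb3 on the opposite strand, and whether reads were counted by strand was not given in the sources used here. Hmgxb3 had only 6 to 22 counts in a library and a log2FC of -0.13 ± 0.34 (SE, adjusted p = 0.830).

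Csf1 to Csf1r, the ratio of a ligand's transcript to that of its receptor, could not be placed closely, because the WT counts of Csf1 were so low. The log2 ratio was -4.34 ± 1.86 (SD, n = 4) in WT and -4.37 ± 0.40 (SD, n = 4) in Ucp1Δ/Δ mice. The difference of -0.032 was smaller than the spread between mice (two-sided exact permutation test, p = 0.857). It was -0.86 without WT replicate 2, which had 0 Csf1 counts, and 0.64 without WT replicate 4, which had 7. Its 95% interval, from -2.56 to 2.90, is wide, so that a shift of either sign was not detectable at this depth.

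Among the GM-CSF receptor genes, the alpha chain Csf2ra (ENSMUSG00000059326, minus strand of chromosome 19, from 61223957 to 61228429) was counted 16, 33, 25 and 32 times in WT and 100, 218, 96 and 119 times in Ucp1Δ/Δ replicates. Its level was 11.9 ± 4.22 CPM (SD, n = 4) in WT and 48.6 ± 14.4 CPM (SD, n = 4) in Ucp1Δ/Δ mice. The highest value, 67.8 CPM, was found in Ucp1Δ/Δ replicate 2, and the lowest Ucp1Δ/Δ value, 35.4 CPM, was still above the highest WT value of 16.2 CPM. The log2FC was 2.05 ± 0.27 (SE, adjusted p = 6.71e-05), or 4.13-fold, and it was 1.72 without WT replicate 1 and Ucp1Δ/Δ replicate 2.

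The common beta chain Csf2rb (ENSMUSG00000071713, plus strand of chromosome 15, from 78325752 to 78353847) was the most even of the members. It was counted 16, 19, 28 and 16 times in WT and 51, 51, 53 and 52 times in Ucp1Δ/Δ replicates, or 8.53 ± 0.57 CPM (SD, n = 4) against 19.6 ± 3.17 CPM (SD, n = 4). The genotypes did not overlap, with 9.35 CPM as the highest WT value and 15.9 CPM as the lowest Ucp1Δ/Δ value. The log2FC was 1.18 ± 0.22 (SE, adjusted p = 0.00118), or 2.27-fold. Unlike the order seen for Csf1r and Csf2ra, Ucp1Δ/Δ replicate 2 had the lowest Csf2rb level of the 4 Ucp1Δ/Δ mice.

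Csf2rb2 (ENSMUSG00000071714, minus strand of chromosome 15, from 78282507 to 78305721) was near the floor and was not among the genes tested. It was counted 0, 1, 0 and 1 times in WT and 7, 11, 7 and 4 times in Ucp1Δ/Δ replicates. The summed counts of 2 and 29 give a ratio of 12.3, with an exact 95% interval from 3.12 to 106.7 that covers counting error only. All 4 Ucp1Δ/Δ mice, at 1.72 to 3.42 CPM, were above all WT mice, at 0 to 0.507 CPM (two-sided exact permutation test of the mean log2 CPM, p = 0.0286, or 0.040 adjusted over the 7 genes). Reads in stretches identical to Csf2rb, as printed above, could have been lost from or added to so low a count.

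Csf3r (ENSMUSG00000028859, plus strand of chromosome 4, from 126024550 to 126044440) was counted 0, 3, 1 and 0 times in WT and 1, 4, 2 and 0 times in Ucp1Δ/Δ replicates, each value being at or near the floor. A difference between genotypes was not detectable at this depth. The mean log2 CPM differed by 0.25, with a 95% interval from -1.42 to 1.35 (two-sided exact permutation test, p = 0.657), and the summed counts of 4 and 7 give a ratio of 1.49 (exact 95% interval from 0.379 to 6.94). Of 10 markers of neutrophils, the cells in which this receptor is best known, 0 had enough counts for the test, and Mpo, Ly6g, Ngp and Camp had 0 counts in each of the 8 libraries. The summed neutrophil markers lay between 2.03 and 9.86 CPM in WT and between 2.15 and 8.49 CPM in Ucp1Δ/Δ mice.

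Most of the listed markers of macrophages, the main cells that carry CSF1R, moved with these genes. Of 10 macrophage markers, 9 were tested and 7 were higher, among them Lyz2, which encodes lysozyme (log2FC 3.67 ± 0.26 SE), and C1qa, a subunit of complement C1q (log2FC 3.22 ± 0.24 SE), with adjusted p of 4.03e-07 and 5.20e-07 from the edgeR test. The other 2 tested markers were not called, and 1 had too few counts for the test. Mertk overlapped between the genotypes, at 6.72 to 22.4 CPM in WT and 18.4 to 36.4 CPM in Ucp1Δ/Δ mice. Of the 7, 3 had fewer than 4 WT libraries over the filter's level, and 1, Cd68, had 0 WT and 4 Ucp1Δ/Δ libraries over it. The inclusion of such markers is not independent of their being higher, so the share of the 7 is not set against the 13.3% of all genes. The summed level of the 10 markers was 93.5 to 147.8 CPM in WT and 858.3 to 1429 CPM in Ucp1Δ/Δ mice. Adgre1, the gene of the F4/80 antigen, had 0 counts in WT replicate 1, and the others of the list were counted in each mouse. Fibroblast markers also moved, 5 of 6 being higher, among them the collagen gene Col3a1 (log2FC 2.74 ± 0.30 SE, beside 2.83 ± 0.19 SE for Csf1r) and Dcn, the decorin gene (log2FC 1.27 ± 0.19 SE), with summed levels of 320.2 to 436.7 CPM in WT and 928.9 to 1681 CPM in Ucp1Δ/Δ mice. Of the 5 fibroblast markers, 1 had fewer than 4 WT libraries over the filter's level, so their share is likewise not set against the 13.3%. The part of cell numbers in the changes of the CSF genes was not tested. The ratios that follow cannot separate cell numbers from RNA per cell.

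**Figure D2:**
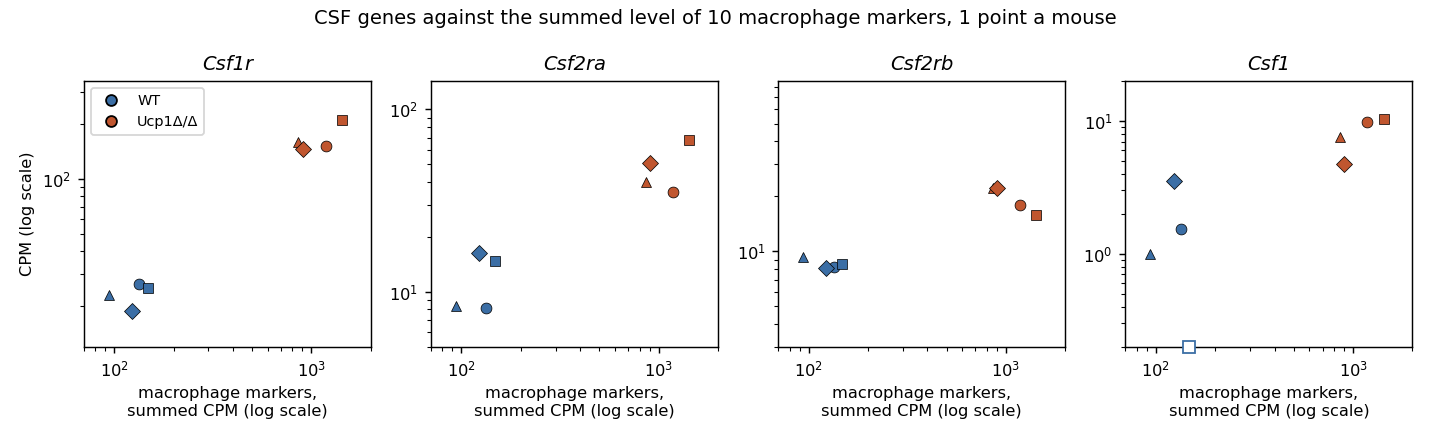
CPM of Csf1r, Csf2ra, Csf2rb and Csf1 (y, log scale) against the summed CPM of 10 macrophage markers (x, log scale), with 1 point for each of 8 mice and the shape giving the replicate number. The genotypes form separate groups in each panel, Csf2rb rising least over the same span of marker level, and the open square on the lower edge marks the WT mouse with 0 Csf1 counts.

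Each receptor was set against the summed counts of the 10 macrophage markers of the same library. Such a ratio does not depend on how libraries are scaled. Csf1r amounted to 19.2% of the macrophage marker counts in the summed WT libraries and to 15.1% in the summed Ucp1Δ/Δ libraries. Its log2 ratio was -2.40 ± 0.30 (SD, n = 4) in WT and -2.70 ± 0.22 (SD, n = 4) in Ucp1Δ/Δ mice, with overlap (two-sided exact permutation test, p = 0.171, and a 95% interval of the difference from -0.94 to 0.26). The sign of this small difference depended on how the markers were combined, as their mean log2 count in place of their sum gave 0.11. The 7.11-fold rise of Csf1r was not distinguished from that of the macrophage markers.

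Csf2rb behaved otherwise, with a count that was 7.09% of the macrophage marker counts in the summed WT libraries and 1.71% in the summed Ucp1Δ/Δ libraries. Its log2 ratio to the markers was -3.81 ± 0.35 (SD, n = 4) in WT and -5.77 ± 0.58 (SD, n = 4) in Ucp1Δ/Δ mice, without overlap. The difference of -1.96 had a 95% interval from -3.18 to -1.18 (two-sided exact permutation test, p = 0.0286, or 0.0762 adjusted over the 8 ratios). Csf2ra was intermediate, at 9.51% and 4.41% of the marker counts, with a difference of -1.08 in the log2 ratio (95% interval from -2.15 to -0.15, exact permutation p = 0.0286, or 0.0762 adjusted). For Csf2ra the call depended on Lyz2, since without it the difference was -0.81 and p = 0.0571 in the exact permutation test, and it was also 0.0571 with any 1 of the 4 Ucp1Δ/Δ mice left out. For Csf2rb p was 0.0286 with each mouse left out of the exact permutation test. With the mean log2 count of the markers in place of their sum, both differences were smaller. They were -0.67 for Csf2ra and -1.54 for Csf2rb (exact permutation p = 0.0286 for each). Adjusted over the 8 ratios no p was under 0.05, and with 3 ratios at the smallest p that the design allows the adjusted value could not fall below 0.0762. The summed markers rose 8.78-fold but not alike, since Mertk overlapped between the genotypes. The size of these differences therefore depends on the markers chosen. Which cells held the Csf2rb transcripts was not tested.

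The remaining ratios rested on few counts. Csf3r amounted to 0.359% of the summed macrophage marker counts in WT and to 0.0579% in Ucp1Δ/Δ libraries, without overlap in the log2 ratio. The difference was -2.69 (exact permutation p = 0.0286, or 0.0762 adjusted). Without WT replicate 2 or Ucp1Δ/Δ replicate 4, p was 0.0571 in the exact permutation test. However, Csf3r itself had 0 to 4 counts in each mouse, while the summed markers were higher in each Ucp1Δ/Δ mouse. A gene that stays near the floor then gives a lower ratio, so this ratio reflects the marker counts and shows no change of Csf3r itself. The ratios of Csf2rb2 and of Csf1 to the markers overlapped, with differences of -0.28 (95% interval from -1.52 to 1.03, exact permutation p = 0.600) and -0.33 (95% interval from -2.49 to 2.57, exact permutation p = 0.743). Without WT replicate 2, the mouse with 0 Csf1 counts, the Csf1 difference was -1.21 (exact permutation p = 0.0286), and without WT replicate 4 it was 0.24.

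**Figure D3:**
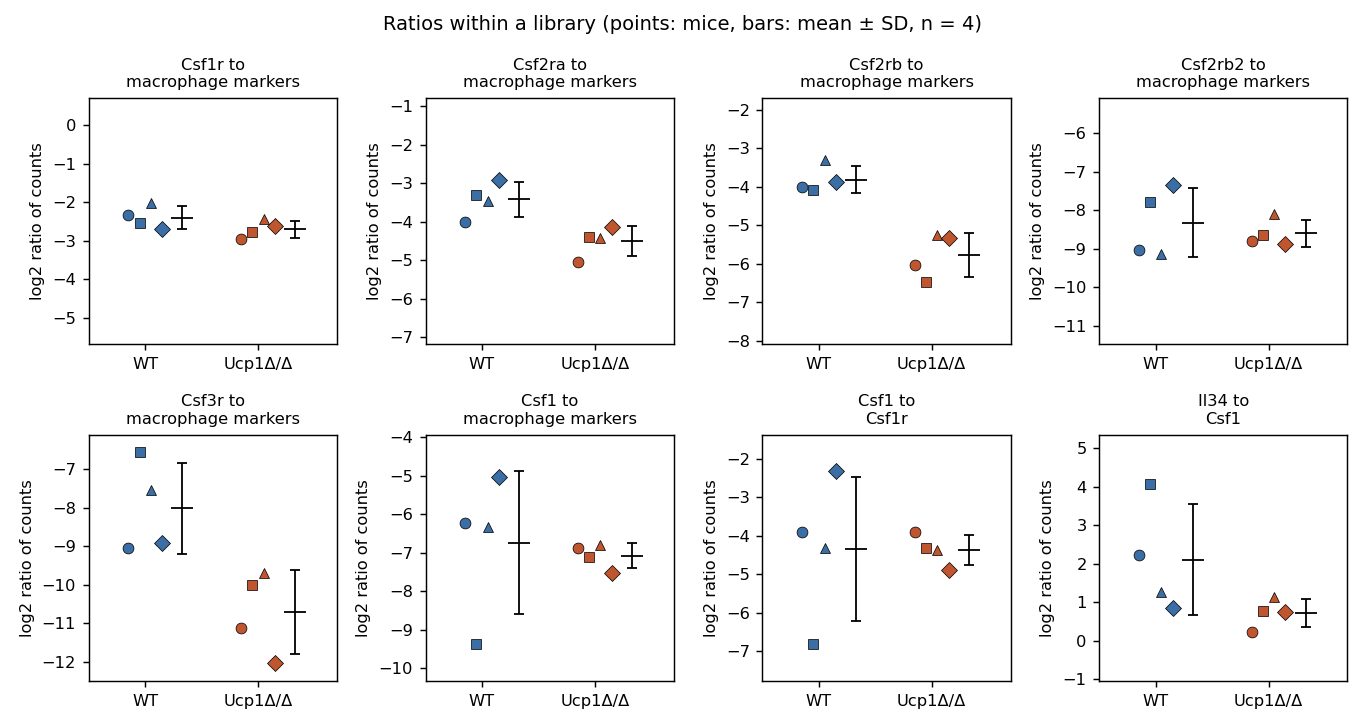
Log2 ratio of counts within a library for the 8 ratios examined, by genotype, with 1 point for each mouse and the mean ± SD of 4 mice as a bar; each panel spans the same number of log2 units. The ratios of Csf2ra, Csf2rb and Csf3r to the macrophage markers were lower in each Ucp1Δ/Δ mouse than in each WT mouse, and the other 5 overlapped.

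Other genes of CSF signalling were examined as a list of 63 genes ordered by role, of which 41 had enough counts and 18 were higher at an adjusted p under 0.05. Of these 18, 9 had fewer than 4 WT libraries over the filter's level, and 4, namely Syk, Pik3cd, Ptpn6 and Dok2, had 0 WT and 4 Ucp1Δ/Δ libraries over it. As with Csf1, the inclusion of such genes is not independent of their being higher, and their share is not set against the 13.3% of all genes. With this test 0 of the 41 were lower, while at an unadjusted p under 0.05 there were 3, Stat5a, Pim1 and Cebpa, and voom called Pim1. The median log2FC over the 41 genes was 0.56. Of 6 further cytokines, only Flt3l and Kitl, which are ligands of other receptors, were tested, and 0 were called. Csf2, Csf3, Il3 and Il5, which encode GM-CSF, G-CSF and the interleukins of the beta chains, had 0 counts in each library, which allows up to 0.933 to 1.53 CPM by the floor of 3 counts. Flt3l, the ligand of the progenitor receptor FLT3, had a log2FC of 0.69 ± 0.42 (SE, adjusted p = 0.287), and Kitl, the ligand of KIT, one of 0.37 ± 0.23 (SE, adjusted p = 0.277). Of 6 further receptors only Kit was tested, with a log2FC of -1.05 ± 0.52 (SE, adjusted p = 0.175).

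Of 19 adaptors and kinases that act below these receptors, 13 were tested and 7 were higher. Of these 7, 4 had fewer than 4 WT libraries over the filter's level. Tyrobp, the adaptor DAP12 that links myeloid receptors to SYK, rose from 3.49 ± 1.41 to 55.8 ± 23.7 CPM (SD, n = 4), with a log2FC of 3.98 ± 0.35 (SE, adjusted p = 1.58e-06). Syk rose from 1.77 ± 0.62 to 8.78 ± 0.93 CPM (SD, n = 4), with a log2FC of 2.29 ± 0.34 (SE, adjusted p = 0.000194), having passed the filter through the Ucp1Δ/Δ libraries alone. Jak2, the kinase bound to the common beta chain, was not called, with a log2FC of -0.26 (adjusted p = 0.488).

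Of 9 STAT factors and targets, 8 were tested and 2 were higher. Higher calls made up 13.3% of all tested genes, and 2 of 8 is not read as a result about this list. The 2 were Ccnd1, which encodes cyclin D1 (log2FC 2.59 ± 0.42 SE, adjusted p = 0.000353), and Socs2, a feedback inhibitor of cytokine receptors (log2FC 1.38 ± 0.37 SE, adjusted p = 0.0147). Ccnd1 had only 1 of 4 WT libraries over the filter's level, and Socs2 overlapped between genotypes. Stat3, Stat5a and Stat5b, which encode STAT factors, had log2FC of 0.27, -0.50 and 0.24 and were not called. Of 9 negative regulators, 5 were tested and 2 were higher, the docking protein gene Dok2 (log2FC 3.10 ± 0.52 SE, adjusted p = 0.000448) and Ptpn6, which encodes the phosphatase SHP-1 (log2FC 2.14 ± 0.43 SE, adjusted p = 0.00208), both of which passed the filter through the Ucp1Δ/Δ libraries alone.

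Of 11 myeloid transcription factors, 10 were tested and 7 were higher. Of these 7, 2 had fewer than 4 WT libraries over the filter's level. Spi1, which encodes PU.1, a factor required for macrophage development, rose from 3.68 ± 0.93 to 41.7 ± 11.8 CPM (SD, n = 4), with a log2FC of 3.51 ± 0.28 (SE, adjusted p = 6.92e-07). Irf8, a factor of the monocyte lineage, rose from 3.74 ± 1.66 to 20.5 ± 1.86 CPM (SD, n = 4), with a log2FC of 2.51 ± 0.30 (SE, adjusted p = 2.60e-05). Cebpa, which adipocytes also express strongly, had a log2FC of -0.48 ± 0.20 (SE, adjusted p = 0.107), and Cebpb one of 0.0090. Of 3 genes of CSF1 shedding, Adam17 and Adam10, both sheddases of the cell surface, were tested and had log2FC of 0.56 (adjusted p = 0.101) and 0.071 (adjusted p = 0.890).

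**Figure D4:**
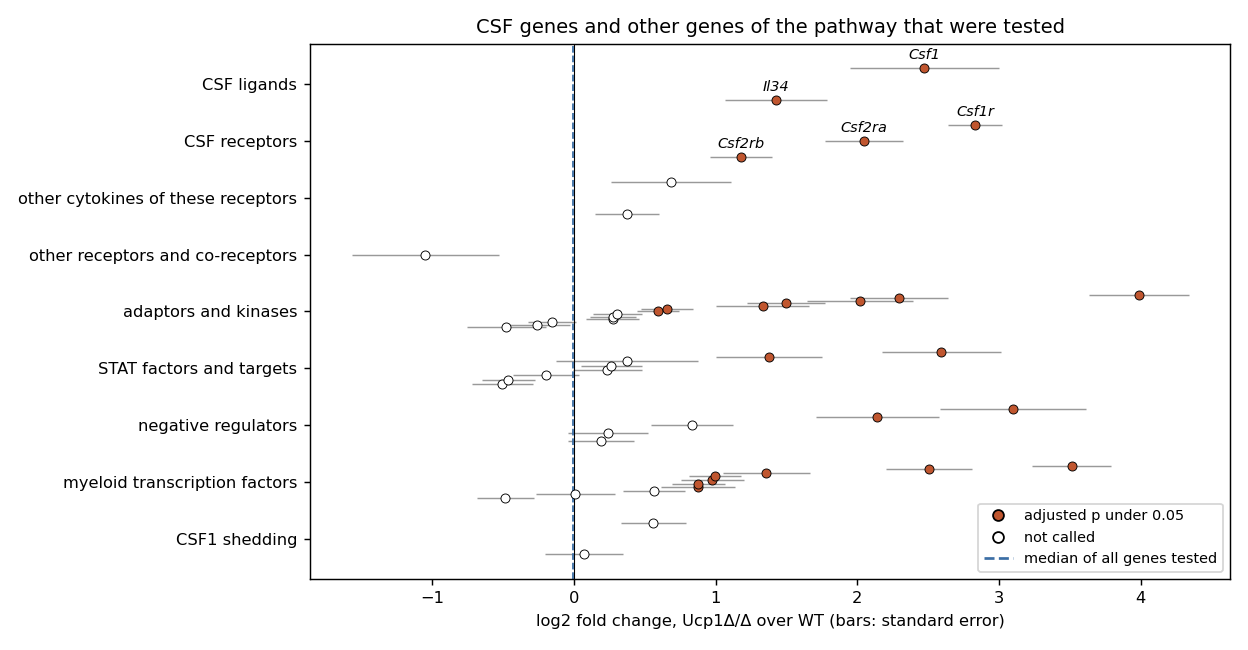
Log2FC (Ucp1Δ/Δ over WT) of the CSF genes and of the other genes of the pathway that were tested, by role, with 1 point for each gene, its standard error as a bar, filled points for an adjusted p under 0.05 and a dashed line for the median of all tested genes. The 5 CSF genes lie between 1.18 and 2.83, the filled points of the other roles are all to the right of 0, and the open points lie on both sides of it.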

How the data were processed

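BAT of 4 WT and 4 Ucp1Δ/Δ mice was profiled, and groups and replicate numbers were taken from the sample labels. By the paper's methods, the authors used bbduk for trimming, STAR for alignment of single-end reads (mm10) and HTseq-counts for counting, and the deposited gene counts are raw. The submitters' processing notes name Trimmomatic, HISAT2 and DESeq2 with GRCm38 and mm10 instead, and which of them made the counts is not settled here. The annotation release and the strand setting were not given in the sources used here. The authors also deposited log2 values, which were found to be counts scaled by a single factor in each mouse, with 1 added before the log (largest relative deviation 3.59e-14), which served for 1 alternative. A table of sample names held no measurement and was not used.

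Of the 31053 identifiers, 30934 were given a symbol from GENCODE M21, an mm10 annotation. Genes were filtered with filterByExpr (8930 left), scaled by TMM and tested with the quasi-likelihood test of edgeR 4.0.16 in R 4.3.3 on genotype alone, with Benjamini-Hochberg adjustment over all tested genes. The study used DESeq2, here an alternative (1.42.0, beside limma 3.58.1). CPM use TMM-scaled library sizes, log2 CPM a prior count of 2, and log2 ratios a pseudocount of 0.5. Standard errors (SE) were taken as |log2FC| divided by √F. Levels and ratios were compared by two-sided exact permutation tests over the 70 divisions of 8 mice, with 95% intervals from the shifts the test did not reject. With a mouse left out, the smallest p is again 0.0286. Scripts were checked on simulated data. Of the changed genes that passed the filter, the main fit recovered 51.6% of 95 with a change of 1 log2 unit and 100% of 88 with a change of 2. Changed genes lost to the filter are not in these shares. Of the simulated calls, 7.43% were unchanged genes. A gene that was not called can therefore still differ by 1 log2 unit.

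The CSF genes and the lists were chosen with earlier results of these data known. Named beside the CSF genes are up to 2 genes a pathway list with the smallest adjusted p in each direction, up to 2 markers a list with the highest CPM (those that bear on a result are printed), and for each tested CSF gene the 3 genes with the most similar profile. Hmgxb3, Adgre1, Adipoq, Plin1, Tie1, the markers at 0 and the pathway genes that were not called were named after their values were seen. Between libraries of the same genotype the chi-square per degree of freedom was 5.36 to 25.8, so 0 were taken for duplicates. Alternatives were other scaling, tests, filters, pseudocounts and marker summaries, the replicate number as a block, and each mouse left out.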

Additional observations from a re-analysis of the deposited data

Results flagged for a closer look

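For the 7 CSF genes, Pnpla2 and the 8 ratios, 32 groups of 4 mice were examined for a mouse whose distance from the nearest of the others, as a share of the group's range, passed Dixon's 95% limit. In 0 of the 32 groups did a mouse pass it, where about 1.6 would be expected by chance.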

How the results depend on the processing

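Csf1, Il34, Csf1r, Csf2ra and Csf2rb passed the threshold as higher in each alternative that tested them, including each left-out mouse, with adjusted p up to 0.0340 for Csf1 and up to 0.0435 for Il34. With a mouse left out, log2FC ranged from 2.07 to 3.21 for Csf1, from 1.16 to 1.71 for Il34, from 2.71 to 2.89 for Csf1r, from 1.85 to 2.21 for Csf2ra and from 1.11 to 1.28 for Csf2rb. In those fits all 5 were called, between 16 and 23 of the pathway genes, and between 1345 and 2155 genes in all, the fewest without Ucp1Δ/Δ replicate 2. At least 10 counts in every library left 6928 genes tested, neither Csf1 nor Il34 among them. Of these, 1195 were called, among them 3 CSF genes and 10 pathway genes. Without WT replicate 1 and Ucp1Δ/Δ replicate 2, chosen after seeing the data, 1095 genes were called. The log2FC was then 2.37 for Csf1, 1.56 for Il34 and 1.26 for Csf2rb. The differences in the ratios to the markers were -1.31 for Csf2ra, -1.78 for Csf2rb and -3.27 for Csf3r without these mice, with a smallest possible exact p of 0.1. With at least 1 count in any library Csf2rb2 was tested and called, with a log2FC of 3.30 (adjusted p = 0.00299), and by DESeq2's Wald test one of 3.53 (adjusted p = 0.0217), values that depend on how its 2 WT counts are treated. Csf3r was not called under the former filter (log2FC 0.47, adjusted p = 0.810). Total counts as the only scaling moved the median log2FC of all genes to 0.13, called 1478 genes higher and 404 lower, 78.5% higher against 63.6%, and gave the mean log2 CPM of Il34 a difference of 1.41 (exact permutation p = 0.0286). With voom Pim1 was called lower, without WT replicate 2 Sos1, and without WT replicate 4 Pim1 and Cebpa. Without Lyz2 the Csf2ra ratio differed by -0.81 (exact permutation p = 0.0571). With the mean log2 count of the markers, 3 ratios to the markers changed sign, to 0.11 for Csf1r, 0.14 for Csf2rb2 and 0.083 for Csf1, each with overlap, and a pseudocount of 1 gave -0.88 for Csf2rb2 and -0.67 for Csf1. With a mouse left out, the difference in mean log2 CPM ranged from 1.71 to 2.52 for Csf1 and from 1.06 to 1.52 for Il34, and that in the ratio to the markers from -1.28 to -0.90 for Csf2ra, from -0.55 to 0.049 for Csf2rb2, from -3.03 to -2.21 for Csf3r and from -1.21 to 0.24 for Csf1. Likewise, Csf1 to Csf1r ranged from -0.86 to 0.64 and Il34 to Csf1 from -1.81 to -0.73. The mice that changed a call in these exact tests are named beside the results. The cause of these changes was not tested. Same-numbered mice are different animals, and their deviations correlated by -0.20 to 0.30; with the replicate block 5 CSF genes, 17 pathway genes and 1719 genes were called, and the log2FC of Csf1r was 2.83.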

Other observations

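The genes whose profile over the 8 mice was most like that of a CSF gene were found by the root mean square difference of log2 CPM, each relative to its WT mean, among genes with a mean of at least 5 CPM. For Csf1r these were Nek6, Tnfrsf1b and Emp3, at 0.20, 0.22 and 0.24 log2 units, against a median of 2.01 over the 8412 genes compared. Tnfrsf1b, which encodes a TNF receptor of leukocytes, rose from 1.68 to 16.5 CPM (log2FC 3.22 ± 0.31 SE). For Csf2ra the nearest were the collagen genes Col6a2 and Col5a3, at 0.17 and 0.20, and Dock2, a regulator of leukocyte migration, at 0.21. For Csf2rb they were Stxbp3, Lamb2 and Rhoj, at 0.17 to 0.18, for Il34 they were Tanc2, Vim and Klhl13, at 0.28 to 0.32, and for Csf1 they were Ephx1, Ccnd1 and Cadm1, at 0.33 to 0.39. Ccnd1 is also in the list of STAT factors and targets.

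Markers of other cells that carry receptors of these families were also counted. Mast cell markers, whose lineage depends on KIT, summed to at most 4.93 CPM in WT and 5.01 to 9.55 CPM in Ucp1Δ/Δ mice, and Tpsb2, a mast cell tryptase, had 0 to 5 counts in WT and 7 to 16 in Ucp1Δ/Δ mice. Of 6 dendritic cell markers 2 were tested. Zbtb46 had a log2FC of -0.12 (adjusted p = 0.792 with edgeR), whereas Itgax, the CD11c gene that macrophages also express, had 1, 0, 0 and 1 counts in WT and 31, 72, 26 and 49 in Ucp1Δ/Δ replicates. Its log2FC was 5.93 ± 0.59 (SE, adjusted p = 4.90e-06), above that of each tested macrophage marker, although it passed the filter through the Ucp1Δ/Δ libraries alone and its size depends on how 2 WT counts are treated. T cell markers summed to at most 9.55 CPM and B cell markers to at most 1.29 CPM in any mouse. Endothelial markers summed to 152.8 to 188.4 CPM in WT and 202.9 to 220.6 CPM in Ucp1Δ/Δ mice. Only Tie1 of 6 was called higher, where 13.3% of all tested genes were, and this is not read as a result about the list. Of 7 adipocyte markers, 3 were lower, Cidea (log2FC -1.16), Adipoq (log2FC -0.82) and Plin1 (log2FC -0.91), where 7.63% of all tested genes were lower. Ucp1 was not called (log2FC -0.34, adjusted p = 0.481 with edgeR).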
